A study of Mus musculus with 3 samples.

Results

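Sox2, Nes, Sox3, Sox4, Sox9 and Sox11 were followed in single mouse cells that were being turned from fibroblasts toward motor neurons. These 6 genes, named by symbol, were found among the 31744 gene symbols of all 3 libraries, and the other 14 Sox genes were read beside them. The genes were selected on their levels in these same 3 libraries, Sox2 and Nes for their difference with the culture supplements, so their levels are a description and no test was made on them.

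Sox2 and Sox3 are SoxB1 transcription factors that keep neural progenitors undifferentiated, and Sox2 also belongs to the pluripotency network. Nes encodes nestin, an intermediate filament protein used as a marker of neural progenitors that is also found in some non-neural cells in culture. Sox4 and Sox11, of the SoxC group, act later and turn on genes of young neurons, while Sox9, of the SoxE group, is known from cartilage, neural crest and glia.

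All cells were mouse embryonic fibroblasts with the Hb9::GFP reporter, and all had received LNI, an mLhx3-P2A-mNgn2x3HA-T2A-Isl1 cassette, and DDRR, HRAS(G12V)-IRES-p53DD, which pairs an activated HRAS with a dominant-negative p53 fragment. The first library held Hb9::GFP+ cells at 14 dpi, a time unit that the labels do not spell out, from a culture with BDNF, CNTF, GDNF, FGF and RepSox, an inhibitor of a TGF-beta receptor kinase. The second held Hb9::GFP+ cells at 14 dpi without these supplements. The last held cells at 4 dpi with supplements, sorted for low CellTrace-FarRed, a dye that is diluted at each division. Live cells were sorted in each case, after papain and DNase at 14 dpi and trypsin at 4 dpi, and all libraries share a batch date. Stage, sort gate and dissociation differ together between 4 and 14 dpi and cannot be told apart. No control line without LNI or DDRR was analysed here.

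Each group is 1 library, so there is no spread between replicates, no test and no p-value, and every interval given is a 95% interval for counting error only. Kept cells numbered 2314 with supplements, 3716 without them and 4492 at 4 dpi. Their median depths were 14380.5, 10664 and 2312.5 unique molecular identifiers (UMIs, counts of single captured transcripts). Between 3 and 5 barcodes were shared by any pair of libraries. Of 18 neuron markers, 17 with supplements, 18 without them and 12 at 4 dpi reached 10 UMIs per 1000000 (CPM), and their summed level was 10625, 6354 and 1779 CPM in that order. All 20 fibroblast markers reached 10 CPM in each library, summing to 3689 CPM with supplements, 5085 CPM without them and 9184 CPM at 4 dpi, so fibroblast transcripts remained in the sorted Hb9::GFP+ cells. The 8 cycling markers summed to 377, 469 and 1173 CPM. Myoblast markers summed to 41.1, 28.7 and 117 CPM, pericyte markers to 18.8, 20.8 and 103 CPM, epithelial markers to 6.20, 10.1 and 40.5 CPM, and endothelial markers to 7.18, 2.42 and 2.46 CPM. Of 6 myoblast markers only Chrna1 reached 10 CPM in any library, and Myod1, Myf5 and Pax7 had 0 UMIs at 4 dpi. Of 6 pericyte or smooth muscle markers only Acta2 did, at 4 dpi, where Myh11 had 0 UMIs. These sums thus rest on few genes and do not show that such cells were present. The part of these transcripts in the results below was not tested.

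Sox2 was far higher with supplements at 14 dpi than without them, and lay between at 4 dpi. It stood at 51.3 CPM (49.0 to 53.6; 1886 UMIs) with supplements, 7.98 CPM (7.19 to 8.84; 366 UMIs) without them and 29.5 CPM (26.5 to 32.7; 360 UMIs) at 4 dpi. The 3 intervals do not overlap. With over without supplements, Sox2 was 6.42-fold higher, a log2 ratio of 2.68 (2.52 to 2.85). Set against 4 dpi, it was 1.74-fold higher with supplements and 3.70-fold lower without supplements. The level at 14 dpi thus lay on opposite sides of the 4 dpi level in the 2 cultures. In sums over a library, fewer cells with a transcript and less of it per cell cannot be told apart.

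Nes, whose protein marks neural progenitors, stood near its 4 dpi level with supplements at 14 dpi and was low without supplements. It stood at 32.5 CPM (30.7 to 34.4; 1195 UMIs) with supplements, 5.84 CPM (5.17 to 6.59; 268 UMIs) without them and 32.0 CPM (28.9 to 35.4; 391 UMIs) at 4 dpi. Its log2 ratio was 2.47 (2.28 to 2.67), or 5.56-fold, with over without supplements. Between 14 dpi with supplements and 4 dpi it was 0.02 (-0.15 to 0.19), an interval that includes 0. Without supplements it was 5.48-fold lower than at 4 dpi.

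Sox3, the other SoxB1 gene, was rare everywhere and its ratio rests on few cells. It had 140 UMIs (3.81 CPM) in 49 cells with supplements, 28 UMIs (0.611 CPM) in 5 cells without them and 13 UMIs (1.07 CPM) in 8 cells at 4 dpi. A single cell held 22 of the 28 UMIs without supplements. The log2 ratio with over without supplements was 2.64 (2.05 to 3.28), and 4.70 once the highest cell of each library was left out. Of the 49 cells with supplements, 23 had at least 2 UMIs and held 114 of the 140. Stmn2, which encodes a microtubule regulator of growing axons, had a UMI in 25 of these 49 cells, and Mki67, a nuclear protein of dividing cells, in 6. Sox2 was seen in 16 of them and Nes in 10.

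**Figure D1:**
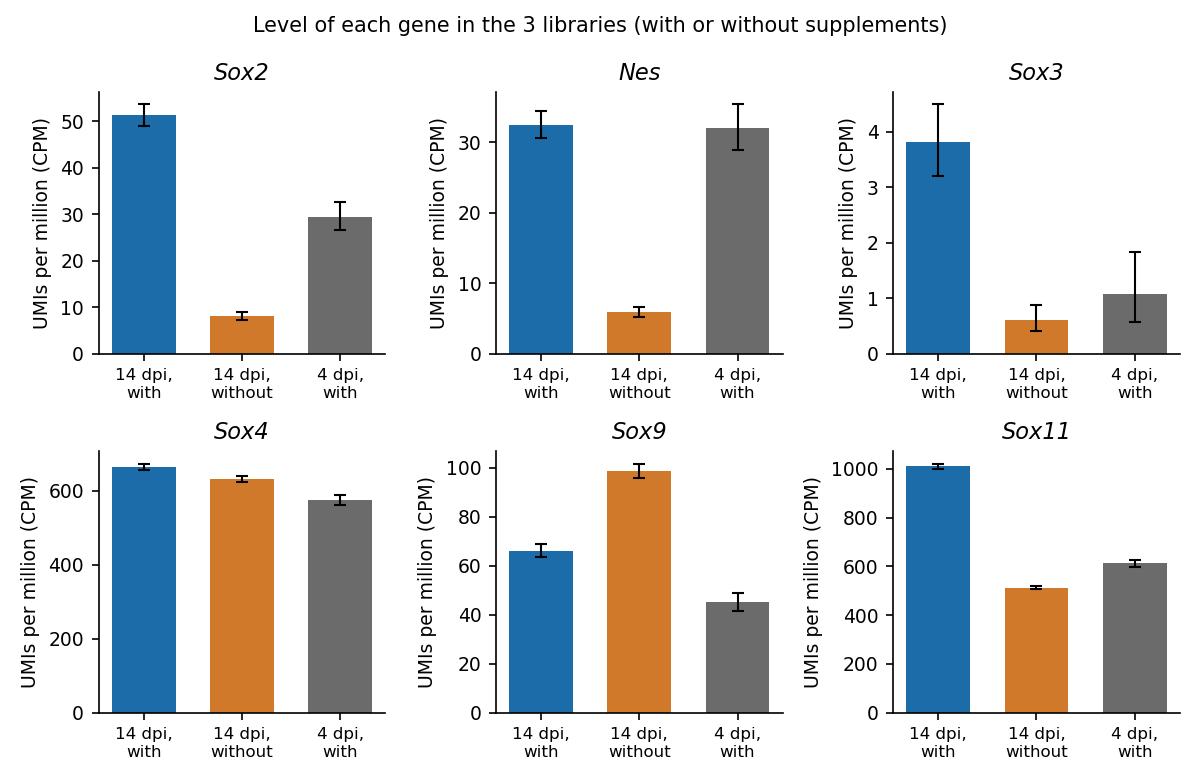
Bars give the level of each gene in CPM, on axes that start at 0 and differ between panels, in the 14 dpi library with supplements, the 14 dpi library without supplements, and the 4 dpi library with supplements, with 95% Poisson intervals (counting error, 1 library per bar). Sox2, Nes and Sox3 are lowest without supplements, Sox11 is highest with them, Sox9 is highest without them, and Sox4 lies between 575 and 665 CPM.

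The SoxC genes were abundant in all libraries and parted between the cultures. Sox4 stood at 665 CPM (656 to 673) with supplements, 632 CPM (625 to 639) without them and 575 CPM (562 to 589) at 4 dpi. Its log2 ratio with over without supplements was 0.07 (0.05 to 0.10), and -0.01 when ribosomal and mitochondrial genes were left out of the total, so its direction hangs on the scaling. Sox11 stood at 1011 CPM (1000 to 1021) with supplements, 513 CPM (506 to 520) without them and 613 CPM (599 to 627) at 4 dpi. Sox11 was thus 1.97-fold higher with than without supplements, a log2 ratio of 0.98 (0.95 to 1.00), while its SoxC partner Sox4 was nearly level. In thinned cells, with each cell reduced to 1000 UMIs, Sox11 was seen in 55.1% with supplements, 34.2% without them and 37.1% at 4 dpi.

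Sox9 ran the other way. It stood at 66.2 CPM (63.6 to 68.9; 2434 UMIs) with supplements, 98.7 CPM (95.9 to 102; 4527 UMIs) without them and 45.1 CPM (41.4 to 49.0; 550 UMIs) at 4 dpi. With over without supplements its log2 ratio was -0.58 (-0.65 to -0.51), 1.49-fold lower. Both 14 dpi libraries were above 4 dpi, by 0.55 (0.42 to 0.69) with supplements and 1.13 (1.00 to 1.26) without supplements on the log2 scale.

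Read against all genes, 5 of the 6 reached 10 CPM in at least 1 library of each pair, and Sox3 did not. Of these 5, Sox2 and Nes were at least 2-fold higher with than without supplements, where 4.79% of 9374 genes were, and 0 were at least 2-fold lower, where 5.18% were. Between 14 dpi with supplements and 4 dpi, 0 of the 5 passed 2-fold, against 15.4% of 9415 genes higher and 10.1% lower. Without supplements against 4 dpi, Sox9 was at least 2-fold higher (15.7% of 9474 genes were) and Sox2 and Nes at least 2-fold lower (9.64% were). The genes were chosen for these contrasts, so nothing is read from the counts. The median log2 ratio of the 5 was 0.98 with over without supplements, 0.55 with supplements over 4 dpi and -0.26 without supplements over 4 dpi, beside 0.03, 0.11 and 0.09 over all genes. The shift of 0.11 is part of every ratio of 14 dpi with supplements over 4 dpi, and relative to it Nes lies slightly below 0.

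The stretches upstream of the starts of Sox2, Nes and Sox11, the genes with the highest ratios of with over without supplements among those at 10 CPM or more, were read from RefSeq tables of build GRCm38.p6. The counts were made on GRCm39, per the submitters' processing notes, and no coordinate was converted. Of the 6 genes, 4 had an entry. Each run below is the 250 bases before the start, 5′ to 3′ on the gene's strand. Capitals mark a SOX core motif (ACAAAG or ACAATG) or an E-box (CANNTG, bound by proneural factors such as Neurog2), searched on both strands. The windows are chr3:34649745-34649994, plus strand, for Sox2, chr3:87970843-87971092, plus strand, for Nes and chr12:27342719-27342968, minus strand, for Sox11.
Sox2: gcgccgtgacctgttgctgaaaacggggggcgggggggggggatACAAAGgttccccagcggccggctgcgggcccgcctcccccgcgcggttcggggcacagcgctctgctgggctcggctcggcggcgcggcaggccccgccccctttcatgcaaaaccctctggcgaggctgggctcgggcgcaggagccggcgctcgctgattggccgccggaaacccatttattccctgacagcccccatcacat
Nes: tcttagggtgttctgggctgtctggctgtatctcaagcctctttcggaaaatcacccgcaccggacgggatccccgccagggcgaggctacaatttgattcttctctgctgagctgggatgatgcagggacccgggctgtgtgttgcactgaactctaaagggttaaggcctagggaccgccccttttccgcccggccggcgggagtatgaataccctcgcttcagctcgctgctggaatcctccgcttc
Sox11: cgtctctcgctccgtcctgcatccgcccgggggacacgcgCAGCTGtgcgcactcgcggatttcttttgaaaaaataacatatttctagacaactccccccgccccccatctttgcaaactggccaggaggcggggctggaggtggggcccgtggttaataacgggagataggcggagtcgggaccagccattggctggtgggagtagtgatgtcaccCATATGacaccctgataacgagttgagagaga
The Sox2 window held 1 SOX core match, beginning 206 bases before the start, and 0 E-boxes. The Nes window held 0 matches of either motif. The Sox11 window held 2 E-boxes, CAGCTG beginning 210 bases and CATATG 32 bases before the start, and 0 SOX core matches. Of 32851 mouse promoters cut the same way, 66.2% held an E-box and 25.2% a SOX core, and the 2 motifs were counted separately where they overlap. GC content was 72% for Sox2, 58.8% for Nes and 58% for Sox11. A match is a string of letters, and its absence speaks only of these windows.

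Sox2 lies on the same strand inside Sox2ot, a long non-coding RNA gene, and overlaps 0 of its exons in the GENCODE M21 annotation of GRCm38. Sox2ot had 88 UMIs (2.39 CPM) with supplements, 15 UMIs (0.327 CPM) without them and 5 UMIs (0.410 CPM) at 4 dpi. Its log2 ratio with over without supplements was 2.87 (2.07 to 3.77), beside 2.68 for Sox2. Whether intronic reads were counted is not stated in what was used here, so reads of this gene and of Sox2 near the shared stretch are uncertain.

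Among the other 14 Sox genes, those with ratios like Sox2 came from the SoxD and SoxB2 groups and were all scarce. Sox6, a SoxD gene, stood at 5.93 CPM with supplements, 1.07 CPM without them and 4.18 CPM at 4 dpi, a log2 ratio of 2.47 (2.02 to 2.95) with over without supplements. Sox13, also SoxD, had 18 UMIs with and 4 without supplements, 2.49 (0.89 to 4.51). Sox5, the third SoxD gene, was nearly level, at 5.95 CPM with supplements, 6.26 CPM without them and 7.70 CPM at 4 dpi, so the SoxD genes did not share a pattern. Sox14, a SoxB2 repressor, had 22 UMIs with supplements and 0 in both other libraries, at least 9.14-fold higher than without supplements when the 0 is set to 3 counts for the library. Its partner Sox21 had 95 UMIs with and 78 without supplements, 0.60 (0.16 to 1.05), and 32 at 4 dpi. Sox1, of the same group as Sox2, had 13 UMIs with supplements, 7 without them and 0 at 4 dpi, and its interval (-0.22 to 2.78) includes 0.

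Sox12, the remaining SoxC gene and the only one of the 14 above 10 CPM, stood at 27.6 CPM with supplements, 30.3 CPM without them and 16.1 CPM at 4 dpi. Its log2 ratio of -0.14 with over without supplements lay near that of Sox4 and below that of Sox11. Sox10, which defines neural crest and Schwann cells, had 1 UMI with supplements, 9 without them and 5 at 4 dpi. Sox8 had 22 UMIs with and 38 without supplements. The endothelial SoxF genes were few in number, with 27 and 48 UMIs of Sox7, 6 and 18 of Sox18 and 4 and 0 of Sox17, each with and then without supplements. Sox15 had 2 and 4 UMIs and Sox30 had 22 and 18 UMIs in the same order.

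**Figure D2:**
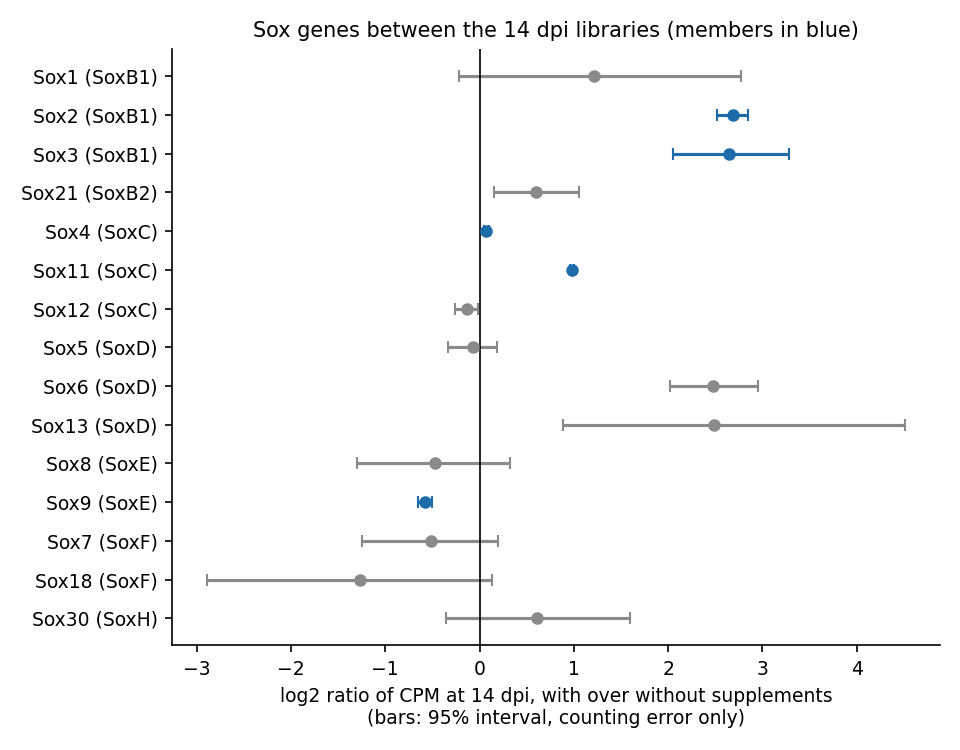
Points give the log2 ratio of CPM at 14 dpi, with over without supplements, for Sox genes with at least 20 UMIs summed over both libraries and none at 0, ordered by family group, with 95% intervals for counting error. Sox2, Sox3, Sox6 and Sox13 lie above 2, Sox4, Sox5 and Sox12 lie near 0, and Sox9 lies at -0.58.

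Of 25 other neural progenitor genes, 12 reached 10 CPM in at least 1 of the 14 dpi libraries. Of these, 2 were at least 2-fold higher with supplements, where 4.79% of all genes were, and 0 at least 2-fold lower, where 5.18% were, with a median log2 ratio of 0.03, the same as over all genes. Those higher were Id4, an inhibitor of basic helix-loop-helix factors, at 16.3 CPM with and 5.89 CPM without supplements, and Ptprz1, a receptor phosphatase of glia and progenitors, at 11.8 and 3.84 CPM. Lowest were Msi1, an RNA-binding protein of neural stem cells, at 9.92 CPM with and 16.3 CPM without supplements, and Prom1, a membrane protein of stem cells, at 76.7 and 110 CPM. Olig2, a factor of motor neuron progenitors, had 0 UMIs in all 3 libraries, which allows up to 0.0816 CPM with supplements, 0.0654 CPM without supplements or 0.246 CPM at 4 dpi (3 counts per library). Of the 13 members below 10 CPM, the Notch target Hes5 had 132 UMIs with and 18 without supplements, and the radial glia gene Fabp7 had 138 and 22. These 2 were named after their values were seen. Sox1, also among the 13, had 13 and 7 UMIs, and most of the others are not given, so nothing is read from them. The astrocyte and radial glia markers as a list summed to 57.0 CPM with supplements, 46.9 CPM without them and 15.9 CPM at 4 dpi, and the neural crest and Schwann markers to 15.1, 10.2 and 7.95 CPM, with 0 of 9 at 10 CPM. Against 4 dpi, 6 of 11 measured progenitor genes were at least 2-fold higher with supplements and 6 of 10 without supplements, beside 15.4% and 15.7% of all genes, and 1 was at least 2-fold lower in each, beside 10.1% and 9.64%.

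Of 10 other pluripotency genes, 9 stayed below 10 CPM in both 14 dpi libraries. The exception, Klf4, stood at 11.9 CPM with supplements, 16.1 CPM without them and 33.8 CPM at 4 dpi. Nanog, Zfp42 and Tdgf1 had 0 UMIs in all libraries, and Pou5f1, the partner of Sox2 in embryonic stem cells, had 9 UMIs with supplements, 42 without them and 5 at 4 dpi.

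Of 12 cartilage genes linked to Sox9, 3 reached 10 CPM in at least 1 of the 14 dpi libraries. Col9a2 stood at 2.15 CPM with and 19.5 CPM without supplements, Col11a1 at 14.7 and 61.0 CPM, and Hapln1, a matrix link protein, at 10.9 and 31.7 CPM. These 3 were at least 2-fold lower with supplements, where 5.18% of all genes were, and their median log2 ratio was -2.05. The defining cartilage genes were near 0, with 9 UMIs of Col2a1 with and 6 without supplements, and 6 and 13 UMIs of Acan. The 5 chondrocyte markers summed to 4.76 CPM with supplements, 2.12 CPM without them and 1.88 CPM at 4 dpi, so as a sum they were not lower with supplements.

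Neuronal differentiation genes linked to Sox4 and Sox11 were all measured, and 4 of 14 were at least 2-fold higher with supplements (4.79% of all genes) and 0 at least 2-fold lower (5.18%), with a median of 0.29. Neurod4, a proneural factor, stood at 20.4 CPM with and 3.31 CPM without supplements, and Stmn2 at 842 and 258 CPM. Gap43, a growth cone protein, stood at 1807 and 752 CPM and the tubulin gene Tubb3 at 1039 and 487 CPM. Lowest were Tead2 at 24.03 and 34.8 CPM and Elavl4, a neuronal RNA-binding protein, at 416 and 584 CPM. Against 4 dpi, 10 of these 14 were at least 2-fold higher with supplements and 9 of 13 without supplements (15.4% and 15.7% of all genes), and Tead2 was at least 2-fold lower in both.

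Cell cycle genes were mostly lower with than without supplements at 14 dpi, by less than 2-fold where measured, and differed strongly from 4 dpi. Mki67 stood at 31.9 CPM with supplements, 54.1 CPM without them and 130 CPM at 4 dpi. Of 28 S and G2/M genes, 26 reached 10 CPM at 14 dpi. Between the cultures 0 passed 2-fold in either direction (4.79% of all genes higher and 5.18% lower). Their median log2 ratio with over without supplements was -0.22, with 22 genes below 0 and 4 above. Against 4 dpi, 27 of 28 were at least 2-fold lower with supplements and 23 of 28 without supplements, beside 10.1% and 9.64% of all genes. Sox2 and Nes therefore did not track the cycle genes over the 3 libraries, being low in the culture whose Mki67 lay between the others.

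Other intermediate filament genes did not share the Nes ratio either. Of 9 listed, 6 reached 10 CPM, 0 were at least 2-fold higher with supplements (4.79% of all genes) and 1 (5.18% of all genes), the neurofilament gene Nefh at 5.08 CPM with and 12.8 CPM without supplements, was at least 2-fold lower. Vim, which encodes the partner of nestin in filaments, stood at 1240 and 1382 CPM. The median was 0.17, and Gfap, the astrocyte filament, had 2 UMIs in each culture.

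The next question was which cells held Sox2 and Nes. Unthinned, Sox2 was seen in 34.0% of cells with supplements, 5.25% without them and 6.55% at 4 dpi. With every cell thinned to 1000 UMIs it was seen in 109 of 2283 cells with supplements, 4.77% (3.94 to 5.73), in 23 of 3694 without supplements, 0.623%, and in 107 of 4379 at 4 dpi, 2.44%. Nes was seen unthinned in 22.99% of cells with supplements, 5.03% without them and 6.70% at 4 dpi. Thinned, these shares were 3.07%, 0.325% and 2.53%. The order of the libraries is that of the summed levels. The transcripts were spread over many cells, since the richest cell with supplements held 14 of 1886 Sox2 UMIs. Without supplements the richest held 28 of 366, with 17 UMIs of Mki67.

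Clusters 5 and 0, which had the most Col1a1, at 1799 and 1294 CPM over all libraries, were set beside these shares. Their marker counts did not set them apart, since cluster 9 also had 20 of 20 fibroblast markers at 20 CPM or more. Clusters 1, 4 and 7 had 19, and clusters 4, 7 and 9 were richer in Sox2, as given further on. Cluster 5, led by Mmp3 and Mgp, with Col1a1 in its top 10 and 20 of 20 fibroblast markers at 20 CPM or more, had a Sox2 UMI after thinning in 1 of 48 cells with supplements, 2.08% (0.053 to 11.1), and in 4 of 755 without supplements, 0.530% (0.145 to 1.35). Median depths there were 10938.5 and 9122.5 UMIs. At 4 dpi, cluster 0, led by Ccl7, Cxcl10 and Dcn, also with 20 of 20 fibroblast markers and a median of 1819.5 UMIs, had Sox2 in 1.46% of cells and Nes in 2.003%. Nes in cluster 5 was at 2.08% with and 0.265% without supplements. The 0.623% and 0.325% of all cells without supplements lie inside the intervals of cluster 5 without supplements. Clusters 5 and 0 are part of the libraries they are set against, so these comparisons cannot separate cells from a background. The Sox2 share of cluster 5 without supplements also rests on 4 cells. Nor was cluster 5 the lowest there, at 7.75 CPM of Sox2 beside 4.36 CPM in cluster 3. Levels between clusters without supplements, given further on, did differ beyond counting error. At 4 dpi the 2.44% for Sox2 lies above the interval of cluster 0 (0.884 to 2.28), and the 2.53% for Nes lies inside it (1.31 to 2.92). The 4.77% and 3.07% with supplements lie above the point values of cluster 5, whose 48 cells leave a wide interval.

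Most cells with Sox2 had no Mki67 UMI, and about as many had Stmn2 as lacked it. For this, 14 dpi cells were thinned to 5000 UMIs, which left 2100 cells with and 3418 without supplements. With supplements, 381 cells had Sox2, and 20 of these had Mki67, 5.25%, beside 6.46% of cells without Sox2. Stmn2 was seen in 180 of the 381, 47.2% (42.1 to 52.4), beside 52.2% of cells without Sox2. Neither marker was seen in 186, 48.8%. Sox2 stood at 51.9 CPM in cells with Mki67 and 49.5 CPM in cells without it, a log2 ratio of 0.07 (-0.48 to 0.57). Cells were also binned by their summed UMIs of S and G2/M genes. Sox2 stood at 46.9 CPM (42.1 to 52.0) with 0 to 2 such UMIs and 47.2 CPM with 3 to 5. The level was 81.5 CPM (56.1 to 114) with 6 to 11 and 64.0 CPM (41.0 to 95.2) with 12 to 23. With 24 or more it was 58.9 CPM (41.7 to 80.9), so the richer bins were higher, with no steady order. Sox2 stood at 43.1 CPM in cells with Stmn2 and 56.5 CPM in cells without it, -0.39 (-0.65 to -0.14).

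Nes was higher in cells with Stmn2. With supplements, 144 of 235 cells with Nes had Stmn2, 61.3% (54.7 to 67.5), beside 50.03% of cells without Nes, and 20 had Mki67, 8.51%, beside 5.95%. Neither marker was seen in 75, 31.9%. Nes stood at 39.4 CPM in cells with Stmn2 and 23.1 CPM in cells without it, 0.77 (0.44 to 1.11) on the log2 scale. For Mki67 the levels were 48.9 and 30.3 CPM, 0.69 (0.12 to 1.22). This ratio was 0.38 (-0.30 to 0.99) without the cells of highest doublet score. It was 0.05 (-0.67 to 0.69) over all deposited barcodes, where the UMIs of each cell were also drawn anew. The added barcodes and the new draw cannot be told apart there, and the intervals do not cover the random thinning.

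The level in cells binned by Stmn2 showed the opposite slopes. With supplements, cells with 0, 1, 2 to 4, 5 to 9 and 10 or more Stmn2 UMIs held Sox2 at 56.5, 58.7, 56.6, 38.4 and 30.5 CPM. In the same bins Nes stood at 23.1, 22.8, 26.3, 37.7 and 57.2 CPM. Sox2 was thus lower and Nes higher in the 2 bins richest in Stmn2, of 292 and 367 cells. Sox4 and Sox11 were also higher in each richer bin, Sox4 at 558 CPM in the lowest and 867 CPM in the highest bin and Sox11 at 830 and 1312 CPM, while Sox9 stayed between 61.4 and 75.7 CPM.

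The slopes of Sox2 and Nes were not seen with the other neuron markers. When cells were ranked by the other 17 neuron markers, Sox2 stood at 45.7, 57.1, 41.9, 41.9 and 61.4 CPM over 5 equal groups of 420 cells, lowest to highest, and Nes at 31.9, 16.7, 37.6, 40.5 and 30.5 CPM, with no steady order. Over the same groups Sox4 stood at 417, 608, 738, 714 and 827 CPM and Sox11 at 591, 870, 1126, 1151 and 1167 CPM, higher in the upper groups as with Stmn2. In the top 10% of cells by these markers against the rest, the log2 ratio was 0.44 (0.05 to 0.81) for Sox2 and -0.31 (-0.94 to 0.26) for Nes, both opposite in sign to the Stmn2 ratios. Within cluster 2, which held 81.3% of the cells with Stmn2, the ratio of cells with over without Stmn2 was -0.27 (-0.72 to 0.20) for Sox2 and 0.29 (-0.19 to 0.81) for Nes. Both intervals include 0. Within cluster 7 they were 0.06 (-0.49 to 0.58) and -0.67 (-2.64 to 0.85). The Nes ratio was -2.80 (-8.15 to -0.22) within cluster 9, where 1 Nes UMI came from the 27 cells with Stmn2, and 1.73 (-0.14 to 3.73) within cluster 11, on 7 and 5 Nes UMIs in cells with and without Stmn2, so its sign was not the same in all 4 clusters. The Sox2 ratios there were 0.06 and -0.18, and both intervals include 0.

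**Figure D3:**
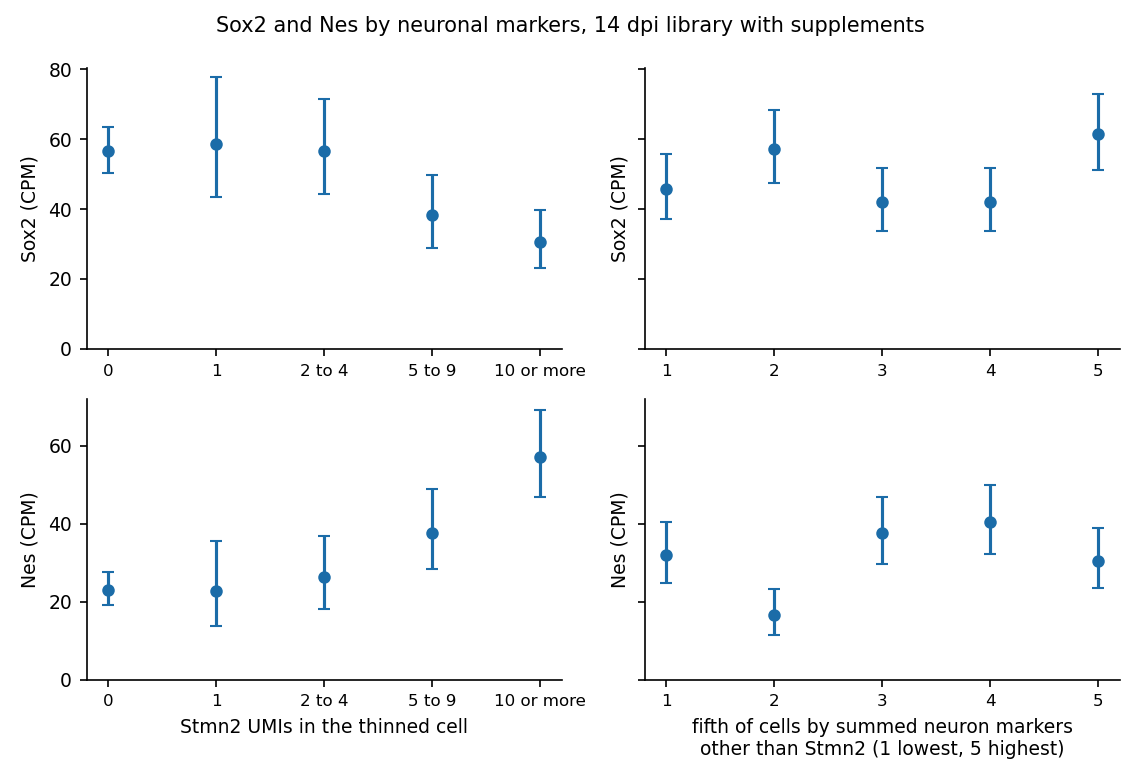
Points give Sox2 (top) and Nes (bottom) in CPM, with 95% Poisson intervals, in cells of the 14 dpi library with supplements thinned to 5000 UMIs, binned on the left by Stmn2 UMIs and on the right in 5 equal groups by the other neuron markers. On the left Sox2 is at 30.5 and Nes at 57.2 CPM in the bin richest in Stmn2, and on the right neither gene follows the ranking.

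Without supplements, Sox2 and Nes were higher in cells with Mki67. Of 94 cells with Sox2, 13 had Mki67, 13.8%, beside 7.97% of cells without Sox2, and 15 had Stmn2, 16.0%, beside 22.5%. Sox2 stood at 20.9 CPM in cells with Mki67 and 6.69 CPM in cells without it, 1.64 (0.99 to 2.25), and 1.25 without the richest cell. Nes stood at 11.5 and 5.10 CPM in the same comparison, 1.18 (0.30 to 1.96). In 145 cells with 10 or more Stmn2 UMIs, 0 Sox2 UMIs were counted, with an upper Poisson bound of 5.09 CPM. At 4 dpi, in cells thinned to 1000 UMIs, 10 of 107 cells with Sox2 had Mki67, 9.35%, beside 9.97% of the others, and 0 had Stmn2. Of 111 cells with Nes there, 12 had Mki67 and 1 had Stmn2.

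The difference between the cultures was present inside the 3 larger classes of cell. With over without supplements, the Sox2 ratio was 1.82 (0.88 to 2.78) in cells with Mki67 only, 3.21 (2.50 to 4.02) in cells with Stmn2 only and 2.97 (2.61 to 3.33) in cells with neither. For Nes it was 2.08, 3.01 and 1.97 in the same classes. In the small class with both markers, 30 cells with and 22 without supplements, Sox2 had 9 and 11 UMIs, a ratio of -0.74 (-2.19 to 0.67), an interval that includes 0. In the cells with Stmn2 only, Sox2 stood at 42.6 CPM with and 4.59 CPM without supplements, and Nes at 39.2 and 4.86 CPM. Sox11 was at 0.95, 0.98 and 0.89 in the 3 larger classes. The differences between classes were not tested.

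Sox4 and Sox9 had no single direction over the classes. Sox4 was higher with supplements in cells with Mki67 only, at 424 CPM with and 267 CPM without supplements, and lower in cells with Stmn2 only, at 763 and 963 CPM. Sox9 was lower with supplements in cells with neither marker, at 68.1 CPM with and 111 CPM without supplements, and higher in cells with Stmn2 only, at 66.9 and 48.9 CPM. Without supplements, Sox9 stood at 50.1 CPM in cells with Stmn2 and 111 CPM in cells without it, -1.14 on the log2 scale, while with supplements these were 67.4 and 68.8 CPM. The lower Sox9 of the culture with supplements was thus seen in cells without Stmn2.

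**Figure D4:**
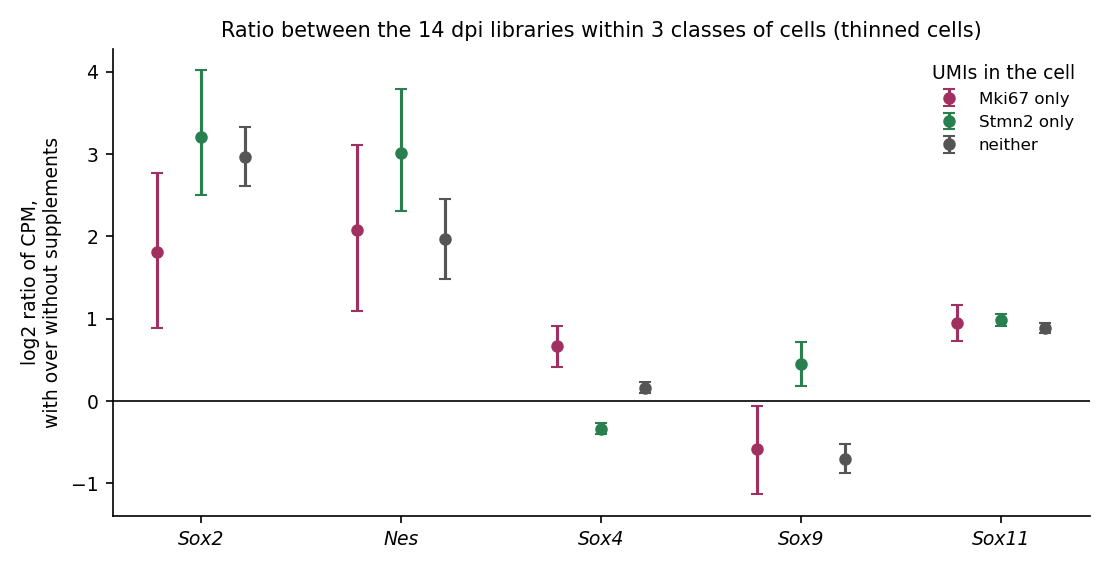
Points give the log2 ratio of CPM, with over without supplements at 14 dpi, in cells with UMIs of Mki67 only, of Stmn2 only or of neither (cells thinned to 5000 UMIs), with 95% intervals for counting error. Sox2, Nes and Sox11 lie above 0 in all 3 classes, while Sox4 is at -0.34 and Sox9 at 0.45 in cells with Stmn2 only, on the other side of 0 from their other classes.

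Clusters of all cells gave a second view, which was not defined by Mki67 and Stmn2 alone. The joint clustering gave 15 clusters, and in it the 14 dpi cultures hardly mixed outside clusters 9, 11 and 13. Cluster 2, led by Gzmd, Cartpt and Nts, held 1201 cells with supplements and 40 without. Nes, Sox3, Mki67 and Stmn2 were among the genes used to cluster, and Sox2, Sox4, Sox9 and Sox11 were not. Of the clusters with at least 50 cells of a library, 4 with supplements held Sox2 at 43.3 to 97.8 CPM, 7 without supplements at 1.23 to 23.5 CPM and 5 at 4 dpi at 14.1 to 52.3 CPM. Nes ranged over 16.5 to 41.6 CPM, 1.58 to 9.75 CPM and 12.0 to 44.7 CPM in the same clusters. Neither gene's range of point values with supplements overlapped that without them. The 48 cells with supplements of cluster 5 lay below, with 13.3 CPM of Sox2, and had 28.2 CPM of Nes.

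Sox2 and Nes had different favoured cells within the culture with supplements. Cluster 2 held 51.9% of these cells, 45.9% of their Sox2 UMIs and 69.6% of their Nes UMIs. Cluster 7, led by Calb1, a calcium buffer, and Igf1, held 29.8% of cells, 36.3% of Sox2 UMIs and 14.7% of Nes UMIs. Sox2 stood at 43.3 CPM in cluster 2 and 64.3 CPM in cluster 7, and Nes at 41.6 and 16.5 CPM. The highest Sox2 level, 97.8 CPM, was in the 84 cells of cluster 11, led by the non-coding RNAs Snhg15 and Chaserr with the stress genes Atf3 and Ier2 in its top 10. In that cluster Sox2 was at 2.95 CPM without supplements, and 29.5 CPM at 4 dpi.

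Cluster 9 was well filled by both cultures, with 159 cells with and 290 without supplements. Led by the cycle genes Top2a, Prc1 and Cenpf, it held Sox2 at 55.5 CPM with and 23.5 CPM without supplements, a log2 ratio of 1.24 (0.89 to 1.59). Of the 113 Sox2 UMIs without supplements there, 28 came from 1 cell, which the interval does not take into account. Nes stood at 35.1 and 7.91 CPM, 2.15 (1.61 to 2.72). Sox11 stood at 711 and 356 CPM and Sox9 at 60.3 and 108 CPM. The cultures thus differed in these 4 genes within this cluster. At the other end, cluster 10, without supplements, led by Fxyd7 and Snhg11 and with 18 of 18 neuron markers at 20 CPM or more, held 1.23 CPM of Sox2 and 1.58 CPM of Nes. Its Sox4 was high, at 990 CPM, and its Sox9 low, at 49.5 CPM.

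At 4 dpi, Sox2 and Nes both had their highest point value in cluster 4 and parted in clusters 6 and 1. Cluster 4, led by Cst6 and Arhgdib, held 52.3 CPM of Sox2 and 44.7 CPM of Nes. Cluster 6, led by Crabp1 and Ppp1r14a with Hes6 in its top 10, held 35.9 CPM of Sox2 and 12.0 CPM of Nes, with Sox4 at 1267 CPM and Sox11 at 1102 CPM. Cluster 1, led by histone genes with Mki67 in its top 10, held 24.96 CPM of Sox2 and 38.7 CPM of Nes, and cluster 0 held 14.1 and 24.1 CPM. The lead of cluster 4 was not clear of counting error over all libraries, where these clusters hold few cells from 14 dpi. Nes intervals there were 38.7 to 55.3 CPM in cluster 4 and 34.2 to 45.7 CPM in cluster 1. Those of Sox2 were 39.7 to 56.5 CPM in cluster 4 and 26.8 to 44.9 CPM in cluster 6. Sox4 and Sox11 were highest in cluster 6.

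**Figure D5:**
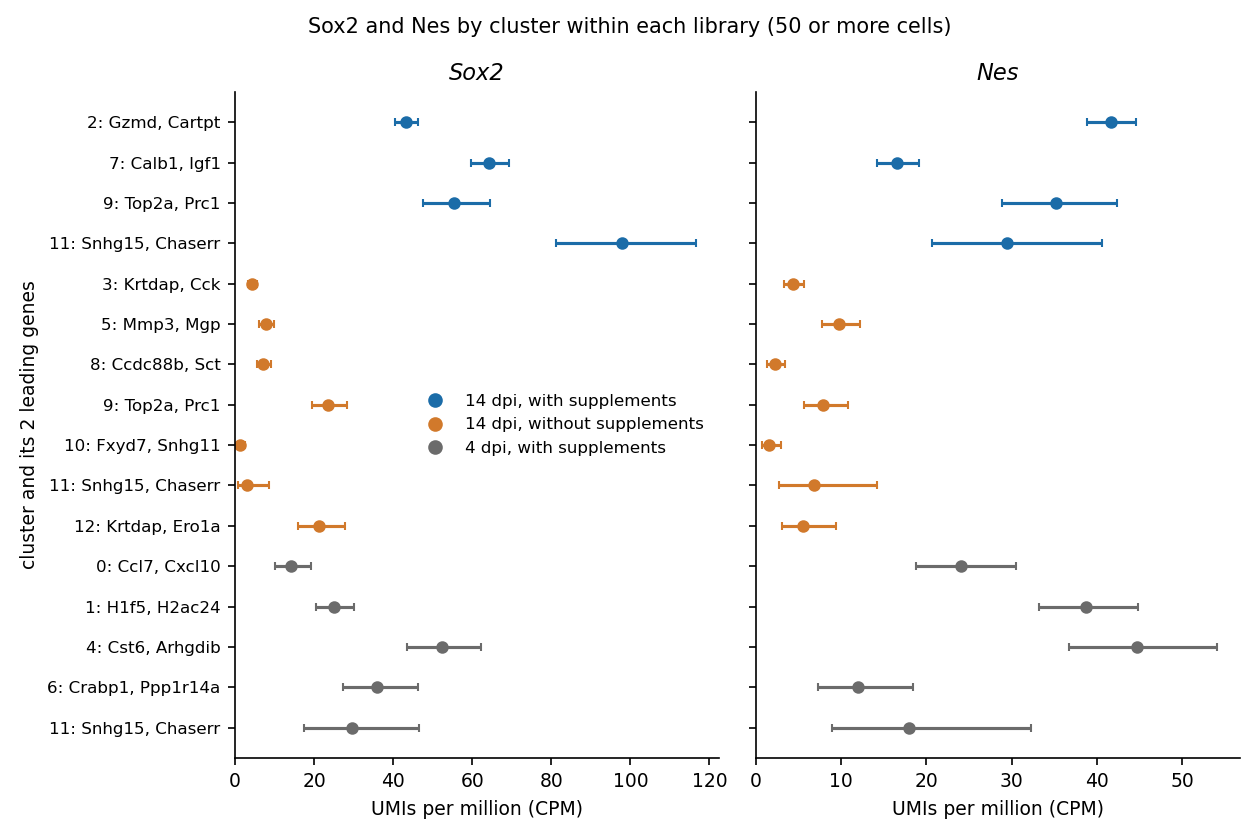
Points give Sox2 (left) and Nes (right) in CPM, with 95% Poisson intervals, for each cluster with at least 50 cells of a library, numbered and named by its 2 leading genes. The 4 clusters with supplements at 14 dpi lie above the 7 without supplements for both genes, and those at 4 dpi span 14.1 to 52.3 CPM for Sox2.

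Nes was no more frequent in cells with Sox2 than in cells without it. With supplements, at 5000 UMIs per cell, Nes was found in 38 of 381 cells with Sox2, 9.97%, and in 197 of 1719 cells without it, 11.5%. Without supplements, 1 of 94 cells with Sox2 and 85 of 3324 without it had Nes. Calb1, the leading gene of cluster 7, was found in 165 of the 381, 43.3% (38.3 to 48.5), beside 27.7% of cells without Sox2. Sox9 was found in 70 of 235 cells with Nes, 29.8%, beside 21.02% of cells without Nes. Sox11, which was in most cells, was seen with supplements in 94.5% of cells with Sox4 and 82.4% of cells without it, and without supplements in 79.4% and 57.1%.

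The cells with Sox2 were then set against the others with supplements, over the 5498 genes with at least 50 UMIs in the cells with Sox2. At 2-fold or more higher were 4 genes (0.0728%), and since genes entered through the cells with Sox2, nothing is read from that count. Highest was Cxcl14, a chemokine, at 31.5 CPM in cells with Sox2 and 10.8 CPM in the others. Next came Pwwp3b, Edaradd, an adaptor of ectodysplasin signalling, and Hhex, a homeobox gene, with ratios of 2.53, 2.21 and 2.21. Gadd45g, a growth arrest gene, stood at 506 and 254 CPM. Fzd4, a Wnt receptor, Zfp704, Ccl12, Cyria and the homeobox gene Msx1 followed, at 1.80 to 1.88-fold. The fibroblast genes Lum (72.4 and 150 CPM), Dcn (136 and 269 CPM) and Col1a1 (58.3 and 91.9 CPM) were lower in cells with Sox2. Between clusters, Col1a1 went the other way over all libraries, at 93.5 CPM in the Sox2-rich cluster 7 and 8.47 CPM in cluster 2. The reporter v.EGFP was 1.15-fold higher in cells with Sox2. These fibroblast genes and v.EGFP were named after their values were seen, and the other fibroblast markers are not given, so nothing is read for the list.

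For Nes, the same filter on the cells with Nes left 4005 genes, of which 21 (0.524%) were at least 2-fold higher, and nothing is read from that count either. Gzmd, a granzyme, stood at 408 CPM in cells with Nes and 90.2 CPM in the others, and Gzme was 4.29-fold higher. The small heat shock protein Hspb1, the extracellular protein Reln and the neuropeptide gene Vip followed at 3.60, 2.87 and 2.77-fold. Cartpt, another neuropeptide gene, stood at 681 and 279 CPM, and 2900026A02Rik, Ppp1r17, Nts and Prokr1 were 2.33 to 2.37-fold higher. Gzmd, Cartpt and Nts also lead cluster 2. The reporter v.EGFP was lower, at 1796 CPM in cells with Nes and 2577 CPM in the others, and was named after its value was seen. Of the fibroblast genes named for Sox2, Col1a1 was 1.31-fold higher in cells with Nes. Lum and Dcn stood at 0.92 and 0.94 of the level in the others, with intervals that include no change.

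Over the 14 clusters of at least 50 cells, the genes most like Sox2 by Pearson's r of log2 (CPM + 10), among 12537 genes, were Cth, an enzyme of cysteine synthesis (0.93), Gadd45a, a stress-induced growth arrest gene (0.92), and Nkd1, an inhibitor of Wnt signalling (0.89). Med29, Fam174c, Otud3, Tchh and E030030I06Rik followed at 0.86 to 0.88. Nes itself had 0.76 with Sox2 and Sox3 had 0.64. For Nes the closest were the non-coding RNA Morrbid (0.90), the kinase gene Prkg2 (0.88) and the receptor gene Adgrg6 (0.86), then Sf3a3, Pno1, B9d1, Pa2g4 and Hspd1 at 0.85. Most clusters come from 1 library, so these points share its culture, depth and sort, and no p is given.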

How the data were processed

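Polyadenylated RNA of single cells was profiled in 3 libraries with 10x 3′ v3.1 reagents, per the labels' protocols. The authors deposited UMI counts per gene and barcode, which the file headers credit to Cell Ranger 6.1.1, on build GRCm39 per the submitters' processing notes. The cell-calling step is not given in the sources used.

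From the deposited counts, a barcode was kept if it had 500 genes or more and no more than 20% mitochondrial UMIs, leaving 36782509 UMIs with supplements, 45855979 without them and 12202809 at 4 dpi. UMIs of the same symbol were summed, and levels are UMIs per 1000000 of the cells compared (CPM), with exact Poisson intervals. Ratios have exact binomial (Clopper-Pearson) intervals, and a 0 was set to 3 counts. Shares have exact binomial intervals, after thinning each cell to 1000 or 5000 UMIs and leaving out shallower cells. PCR duplicates were collapsed by the UMIs, and intervals cover counting error only.

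Samples were grouped by the labels, with 1 library per group, so no test was made. A gene counts as higher or lower at 2-fold among genes at 10 CPM or more in either library. Cells were clustered together with scanpy 1.11.5 (counts scaled to 10000, 2000 variable genes, 30 components, 15 neighbours, Leiden resolution 1). Scrublet called 3, 1 and 1 doublets, so few that it was taken to have failed, and no doublet was removed. An alternative dropped the top 5% of cells by its score. Python 3.11.15, numpy 2.4.6, scipy 1.17.1, pandas 2.3.3 and matplotlib 3.10.9 were used, and the steps were tested on simulated data.

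The members and lists were chosen with earlier results of these data known. Named were all Sox genes, the listed genes with the highest and lowest ratios of those at 10 CPM or more (at most 4 a list) and those at 0, the 8 genes most like Sox2 or Nes over clusters, and the 10 richest in cells with either. Alternatives changed the cells kept, the scaling, the weight of cells, thinning, marker thresholds, doublets, single rich cells, clustering resolution and the minimum level.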

Additional observations from a re-analysis of the deposited data

Results flagged for a closer look

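The point ratios of Nes by Stmn2 had opposite signs in the 14 dpi cultures, but only the interval with supplements excludes 0. On the log2 scale, Nes in cells with over cells without a Stmn2 UMI was 0.77 (0.44 to 1.11) with supplements and -0.22 (-1.02 to 0.52) without supplements. The difference between the cultures was not tested, since each is 1 library. The interval without supplements includes 0, and it rests on few UMIs, at 4.99 CPM in cells with Stmn2 and 5.80 CPM in cells without it. The sign with supplements was not steady either, at -0.31 for the top cells by the other neuron markers. Within clusters 2 and 11 the ratio by Stmn2 was 0.29 and 1.73, and within clusters 7 and 9 it was -0.67 and -2.80. Of these, only the interval of cluster 9 excludes 0.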

How the results depend on the processing

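No paired analysis was possible because each group holds 1 library. The Sox2 ratio of with over without supplements ranged over 2.60 to 2.80 and the Nes ratio over 2.39 to 2.50 (log2) under 7 alternatives, and Sox3, Sox9 and Sox11 kept their signs, at 2.08 to 4.70, -0.66 to -0.46 and 0.89 to 1.05. The Sox4 ratio, 0.07, was -0.014 with ribosomal and mitochondrial genes out of the total. That scaling moved the median of all genes to -0.05. The Nes ratio of 14 dpi with supplements over 4 dpi lay between -0.14 and 0.06.

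With the top 10% of cells by the other neuron markers in place of Stmn2, the ratios with supplements became 0.44 for Sox2 and -0.31 for Nes. The Nes ratio for Mki67 was 0.049 over all deposited barcodes with a new random thinning, against 0.69. The log2 ratio of shares of cells with Nes, 3.24 at 1000 UMIs, was 2.15 at 5000 and 2.19 unthinned. The ratio of the highest Sox2 cluster over all libraries to all other cells, 1.47 for cluster 7, was 0.89 at resolution 0.5, where a Snhg15-led cluster was highest. That of Nes, 1.31 for the Cst6-led cluster 4, was 1.91 at resolution 2, where a Gzmd-led cluster was highest, and at resolution 0.5 a cluster led by H1f5 was highest. Genes 2-fold higher with than without supplements numbered 3759 with no minimum level and 293 at 20 CPM, against 449, and those lower numbered 2730 with no minimum, against 486. The cause of these shifts was not tested, apart from the counts, where more or fewer genes were compared. In all, values of the main comparisons stayed close to those reported in 42 cases, moved in 8 and reversed in 2, and those of single genes in 181, 46 and 1.

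Depth limits Sox3, Sox1 and Sox14 in every library, and all shares at 4 dpi. A single library per culture means that no difference here has been seen to recur.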
